A study of Mus musculus with 6 samples.

Results

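The Fc receptor genes examined here are Fcgr1, Fcgr2b, Fcgr3, Fcgr4, Fcer1g and Fcgrt, 6 of the 27179 genes in the count table, chosen by symbol and found by mouse Entrez gene ID. Their transcripts were measured by RNA-seq in CD8-negative dendritic cells sorted from the spleens of C57BL/6 mice. There were 3 libraries from CpG-pretreated animals and 3 from untreated animals, numbered 2, 3 and 4 in both groups and called biological replicates in the series design. The cells were lysed straight after sorting, without culture, and the series title calls them paralysed following systemic inflammation. The sources used here do not give the CpG sequence, dose, route or interval, or whether a library pooled several animals, so p-values measure the spread between these libraries only.

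Fc receptors bind the constant part of antibodies and let dendritic cells take up antigen held in immune complexes. The activating receptors for IgG carry no signalling motif of their own and depend on a shared gamma chain, the product of Fcer1g, whose ITAM (an activating tyrosine motif) is bound by the kinase Syk. Fcgr2b encodes the inhibitory receptor, whose ITIM (an inhibitory tyrosine motif) recruits the phosphatase encoded by Inpp5d. Fcgrt encodes the neonatal Fc receptor, which pairs with beta-2-microglobulin inside endosomes and returns IgG and albumin to the cell surface.

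No member passed edgeR's quasi-likelihood test over all 11602 genes tested, 0 of 6 against 0.974% of all genes called (0.474% higher and 0.500% lower, Benjamini-Hochberg adjusted p under 0.05). Among the members 2 had an unadjusted p under 0.05, Fcgr3 and Fcgrt, and DESeq2 and limma-voom also called 0 of 6. These same 2 were called once the replicate number entered the fit as a block, Fcgr3 lower and Fcgrt higher in CpG-pretreated cells, 2 of 6 against 8.52% of all genes (4.73% higher and 3.78% lower). They were also the members whose groups did not overlap, 1 higher and 1 lower, which held for 18.7% of all genes tested (9.20% higher and 9.47% lower). In bulk RNA of this kind, fewer cells that express a gene and less RNA of it per cell cannot be told apart.

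The 6 libraries held 7855500 to 8228140 counts each, and 1 count was worth 0.123 to 0.127 CPM (counts scaled to a common library size). The cells carried the transcripts of conventional dendritic cells, with the 8 core markers (Flt3, Zbtb46, Itgax, the class II genes and others) summing to 44300 to 52500 CPM in CpG-pretreated and 48000 to 58200 CPM in untreated libraries. Markers of basophils and mast cells summed to at most 1.84 CPM, with Fcer1a and Ms4a2 at 0 counts in all 6 libraries, and those of NK cells to at most 3.56 CPM. Of the markers of CD8-negative conventional dendritic cells (cDC2), 1 of 10 was lower by edgeR and 5 with the block (list median -0.41). Of the 8 cDC1 markers 0 were called by edgeR and 4 were higher with the block (list median 0.66), among them not Cd8a, which averaged 3.58 CPM after CpG and 2.48 CPM without it. Neutrophil markers summed to 53.7 to 103 CPM after CpG and 3.32 to 76.4 CPM without it, with 1 of 6 tested higher with the block (list median 0.95). The part of these markers in the values of the Fc receptor genes was not tested. Markers of red pulp macrophages summed to 353 to 478 CPM after CpG, against 509 to 670 CPM in untreated libraries (list median -1.06). Most of this sum was Adgre1, at 263 to 357 CPM after CpG and 328 to 369 CPM without it. Its groups overlapped (log2 fold change -0.22, edgeR adjusted p = 0.559), so the sum mostly follows that 1 gene. Erythroid transcripts summed to 210 to 998 CPM after CpG, against 21.7 to 88.0 CPM without it.

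On GRCm38, 4 members lie within 273.8 kb of chromosome 1: Fcgr2b (Entrez 14130, 170960558 to 170976071, minus strand), Fcgr4 (246256, 171018926 to 171029761, plus strand), Fcgr3 (14131, 171051169 to 171065915, minus strand) and Fcer1g (14127, 171229572 to 171234349, minus strand). Fcgr1 (14129) lies on chromosome 3 at 96282909 to 96293969 and Fcgrt (14132) on chromosome 7 at 45092993 to 45103822, both on the minus strand. A small RNA gene lies on the same strand within Fcgr4 (Gm26110) and within Fcgr3 (Mir6546).

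Compared per length of transcript, the members kept the same order of level in 6 of 6 libraries. Fcer1g stood at 496 ± 40.1 CPM per kilobase in CpG-pretreated and 516 ± 68.5 CPM per kilobase in untreated cells (SD, n = 3 each, as for every mean below), above 99.5% of the genes tested. Fcgrt followed at 47.6 ± 2.83 CPM per kilobase after CpG and 38.7 ± 3.94 CPM per kilobase without it, and Fcgr2b at 29.3 ± 1.53 CPM per kilobase after CpG and 26.4 ± 3.22 CPM per kilobase without it. Fcgr4 had 18.0 ± 5.49 CPM per kilobase in CpG-pretreated and 18.3 ± 2.73 CPM per kilobase in untreated cells. Fcgr3 and Fcgr1 were the lowest, Fcgr3 at 3.39 ± 0.228 and 6.20 ± 2.17 CPM per kilobase and Fcgr1 at 2.07 ± 0.912 and 1.40 ± 0.477 CPM per kilobase in CpG-pretreated and untreated cells. Of all genes tested, 26.5% lay below Fcgr3 and 11.9% below Fcgr1. No pair of neighbours in this order changed places in any library, and within each group neighbours did not overlap.

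**Figure D1:**
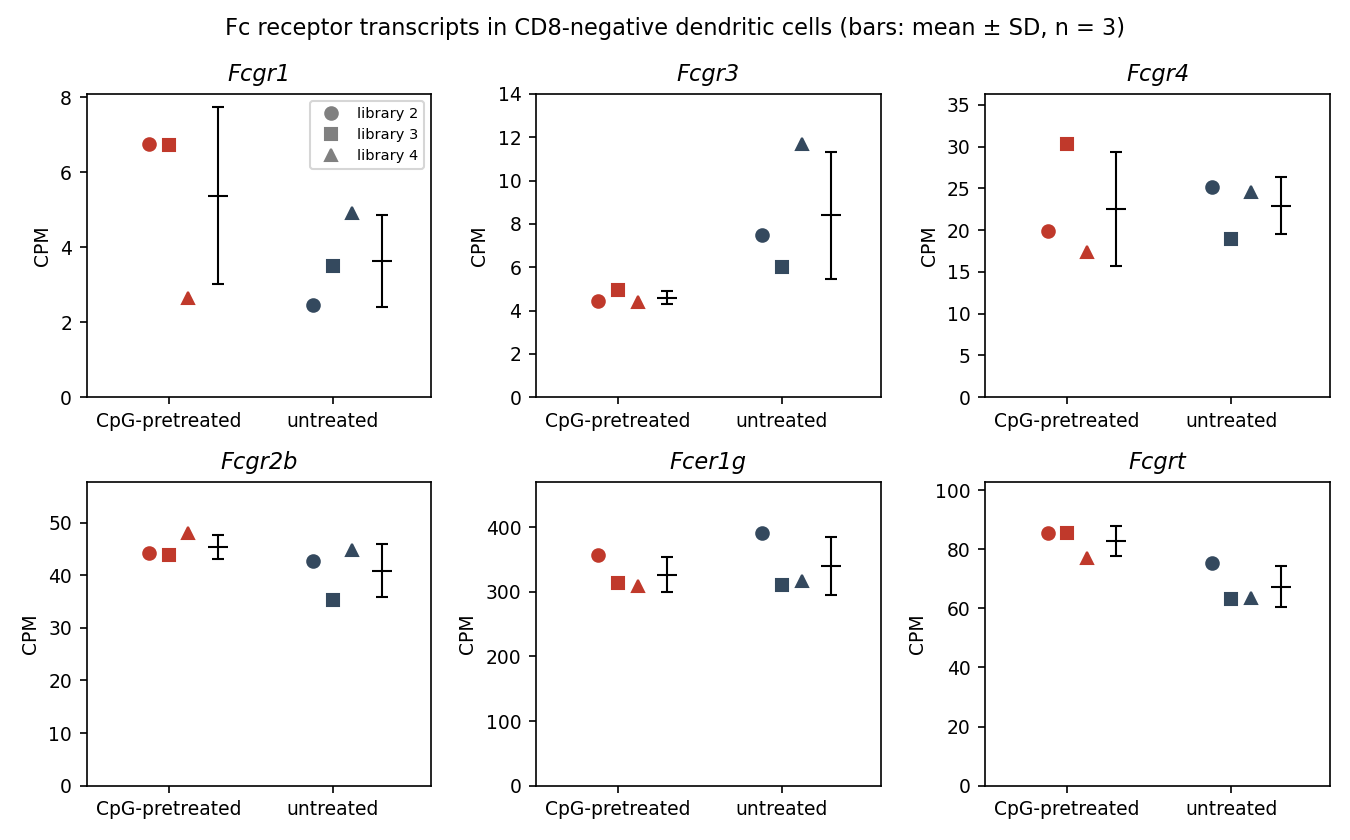
Level of each Fc receptor gene in CPM (y axis, from 0) in the 3 CpG-pretreated and 3 untreated libraries (x axis), with symbols for the library number and bars for mean ± SD. The Fcgr3 points after CpG, 4.41 to 4.95 CPM, all lie below the untreated ones, and the Fcgrt points, 77.1 to 85.6 CPM, all lie above theirs.

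Among the activating receptors, Fcgr1 encodes CD64, the high-affinity IgG receptor. It was counted 55, 53 and 21 times in libraries 2, 3 and 4 of the CpG-pretreated group, against 20, 28 and 40 times in libraries 2, 3 and 4 of the untreated group. In CPM these counts are 6.75, 6.72 and 2.64 after CpG and 2.46, 3.501 and 4.92 without it. CpG-pretreated libraries 2 and 3 lay above all untreated ones, library 4 lay among them, and the groups overlapped. The difference was 0.57 on the log2 scale (95% interval -0.33 to 1.46, SE 0.39, edgeR adjusted p = 0.660; 0.525 with the block), an interval that reaches from 0.796 to 2.75-fold. Differences between same-numbered libraries were 1.37, 0.90 and -0.84 on the log2 scale for numbers 2, 3 and 4. The counts in pair 2 had exact Poisson 95% intervals of 41.4 to 71.6 after CpG and 12.2 to 30.9 without it. These do not overlap. Those in pair 3, 39.7 to 69.3 and 18.6 to 40.5, overlap. Those in pair 4, 13 to 32.1 and 28.6 to 54.5, overlap too. All these intervals cover counting error only and not the spread between libraries, and PCR duplicates cannot be recognised in the counts.

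Fcgr1 is known as an interferon-gamma induced gene, and its promoter is shown because the 14 genes of the interferon-gamma induced list all had log2 fold changes above 0. Over the 14 such genes on the list, the median log2 difference was 0.88, 1.24 and 0.36 in pairs 2, 3 and 4. It was smallest in pair 4, where Fcgr1 was lower after CpG. It was largest in pair 3, while the Fcgr1 difference was largest in pair 2. Monocyte markers, of which 9 of 10 were tested, had pair medians of 0.54, 0.42 and -0.14. Their sum was 608 to 675 CPM in CpG-pretreated and 605 to 776 CPM in untreated libraries. Of the 9 tested, 6 had log2 fold changes above 0 and 0 were called by edgeR. With the block 0 were called higher and 2 lower, Ace (-0.74) and Treml4 (-0.47). The part of interferon-gamma or of monocytes in the Fcgr1 values was not tested. The window (RefSeq, GRCm38.p6, chr3:96293920-96294219, minus strand, 5' to 3') runs from 250 bases before the start site to 50 after it, and capitals mark matches to the searched motifs.
Fcgr1 promoter: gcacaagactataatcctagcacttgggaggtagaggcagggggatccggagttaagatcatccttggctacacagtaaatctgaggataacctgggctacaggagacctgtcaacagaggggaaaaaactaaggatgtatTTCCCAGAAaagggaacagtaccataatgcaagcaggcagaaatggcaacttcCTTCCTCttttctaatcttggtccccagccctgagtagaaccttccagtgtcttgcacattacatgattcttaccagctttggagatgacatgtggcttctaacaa
The first capitals, 109 bases before the start site, match TTCNNNGAA, the form of a GAS element of interferon-gamma induced genes, which reads the same on both strands and was found in 8.30% of 32851 promoters of this length. The second, 56 bases before the start, are GAGGAAG read on the other strand, a core of sites for the myeloid factor PU.1, found in 13.6% of promoters. A match describes the letters only.

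Fcgr4 encodes CD16-2, an activating receptor of myeloid cells. Its level was 19.9, 30.3 and 17.4 CPM in libraries 2, 3 and 4 of the CpG-pretreated group, against 25.2, 19.0 and 24.6 CPM in libraries 2, 3 and 4 of the untreated group. CpG-pretreated library 3 was the highest of the 6 and CpG-pretreated libraries 2 and 4 lay near the lowest untreated one. The log2 fold change was -0.03 (SE 0.22, 95% interval -0.52 to 0.47, edgeR adjusted p = 0.980), which bounds the fold between 0.696 and 1.39. The value turned to 0.13 without CpG-pretreated library 4, 0.06 without CpG-pretreated library 2 or untreated library 2, and 0.02 without untreated library 4. The Fcgr4 promoter (RefSeq, GRCm38.p6, chr1:171018676-171018975, plus strand) is shown beside that of Fcgr1, as the member whose window held the other interferon motif.
Fcgr4 promoter: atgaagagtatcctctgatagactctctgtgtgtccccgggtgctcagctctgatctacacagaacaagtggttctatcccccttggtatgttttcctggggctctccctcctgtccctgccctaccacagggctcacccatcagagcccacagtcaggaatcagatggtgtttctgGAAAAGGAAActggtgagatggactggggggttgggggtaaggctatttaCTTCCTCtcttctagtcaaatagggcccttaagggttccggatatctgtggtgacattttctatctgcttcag
The first capitals, 73 bases before the start site, match the interferon-stimulated response element (ISRE, searched on both strands), found in 3.44% of promoters. The second, 23 bases before the start, are the PU.1 core on the other strand. Neither interferon motif was found in the windows of Fcgr2b, Fcgr3, Fcer1g or Fcgrt. The PU.1 core was also found in each of the Fcgr3 windows, 7 and 16 bases before their start sites.

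Fcgr3 encodes CD16, the low-affinity activating receptor. It had 4.42, 4.95 and 4.41 CPM in libraries 2, 3 and 4 of the CpG-pretreated group (36, 39 and 35 counts), against 7.50, 6.00 and 11.7 CPM in libraries 2, 3 and 4 of the untreated group (61, 48 and 95 counts). Every CpG-pretreated library lay below every untreated one, and untreated library 4 was the highest. The log2 fold change was -0.87 (SE 0.27, 95% interval -1.48 to -0.26, unadjusted p = 0.0107, edgeR adjusted p = 0.190), a level of 0.547 times the untreated one. With the replicate number as a block Fcgr3 fell by 0.84 on the log2 scale (SE 0.23, adjusted p = 0.0369, lower in 3 of 3 pairs). The same-numbered differences were -0.73, -0.27 and -1.36. Red pulp macrophage transcripts were also lower after CpG, with 3 of 12 markers lower by edgeR (9 with the block) and 0 of 12 log2 fold changes above 0. Their pair medians were -0.84, -1.07 and -1.28, smallest in size in pair 2, while the Fcgr3 difference was smallest in pair 3. The part of these macrophage transcripts in the Fcgr3 difference was not tested.

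Fcgr2b and Fcgr3 are genes of one chromosome 1 cluster, with Fcgr4 between them, whose coding sequences for the antibody-binding part are nearly identical, which bears on how reads are divided between them. Over 509 aligned coding bases 96.5% were identical, with an unbroken identical run of 129 bases. The opening of that stretch is shown, from coding bases 126 to 425 of Fcgr2b and 111 to 410 of Fcgr3 (GENCODE M21 transcripts, chromosome 1, both genes on the minus strand), where capitals mark the 14 of 300 positions that differ.
Fcgr2b coding: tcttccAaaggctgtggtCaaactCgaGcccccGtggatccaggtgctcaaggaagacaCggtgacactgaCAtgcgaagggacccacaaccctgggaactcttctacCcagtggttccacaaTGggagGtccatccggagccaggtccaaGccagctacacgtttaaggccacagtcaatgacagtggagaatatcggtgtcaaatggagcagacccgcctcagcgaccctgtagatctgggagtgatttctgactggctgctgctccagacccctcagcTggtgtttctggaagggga
Fcgr3 coding: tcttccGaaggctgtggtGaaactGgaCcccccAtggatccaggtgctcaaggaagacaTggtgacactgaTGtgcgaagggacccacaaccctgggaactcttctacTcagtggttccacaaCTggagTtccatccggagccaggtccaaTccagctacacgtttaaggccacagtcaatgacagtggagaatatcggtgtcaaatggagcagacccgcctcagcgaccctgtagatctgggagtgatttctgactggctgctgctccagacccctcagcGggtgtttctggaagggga
Of all 50-base words in the transcripts of Fcgr3, 10.2% also occurred in Fcgr2b. Fcgr2b shared 6.72% of its words, with Fcgr3 and with a range of other genes. Fcgr1, Fcgr4, Fcer1g and Fcgrt shared 0% of theirs with any other gene. Words were compared in the direction of the transcript only, so overlap with antisense genes is not covered. Neither read length nor the handling of reads that match both genes is stated in the sources used here, so counts of Fcgr3 and Fcgr2b are uncertain as to which copy they came from. Summed, both genes gave 48.6, 48.8 and 52.5 CPM in libraries 2, 3 and 4 of the CpG-pretreated group, against 50.1, 41.3 and 56.4 CPM in libraries 2, 3 and 4 of the untreated group. The sum differed by 0.02 on the log2 scale (SE 0.13, edgeR adjusted p = 0.976), and its groups overlapped. Most of the sum came from Fcgr2b, so it could show little of a change in Fcgr3 alone. Fcgr3 made up 9.09%, 10.1% and 8.39% of this sum after CpG (exact Clopper-Pearson 95% intervals between 5.92% and 13.6%) and 15%, 14.5% and 20.7% without it (intervals between 10.9% and 24.7%). These intervals too cover counting error only, and the part of reads divided between the copies in these shares was not tested.

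The inhibitory receptor gene Fcgr2b, encoding CD32, had 44.2, 43.9 and 48.1 CPM in libraries 2, 3 and 4 of the CpG-pretreated group, against 42.6, 35.3 and 44.7 CPM in libraries 2, 3 and 4 of the untreated group. The groups overlapped, with untreated library 3 the lowest of all. The log2 fold change was 0.15 (SE 0.12, 95% interval -0.12 to 0.42, edgeR adjusted p = 0.722; with the block 0.366), which limits a rise to 1.34-fold and a fall to 0.919 times. An antisense gene, Gm38204, overlaps Fcgr2b, and without a stated strand setting its reads cannot be told apart from those of Fcgr2b.

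**Figure D2:**
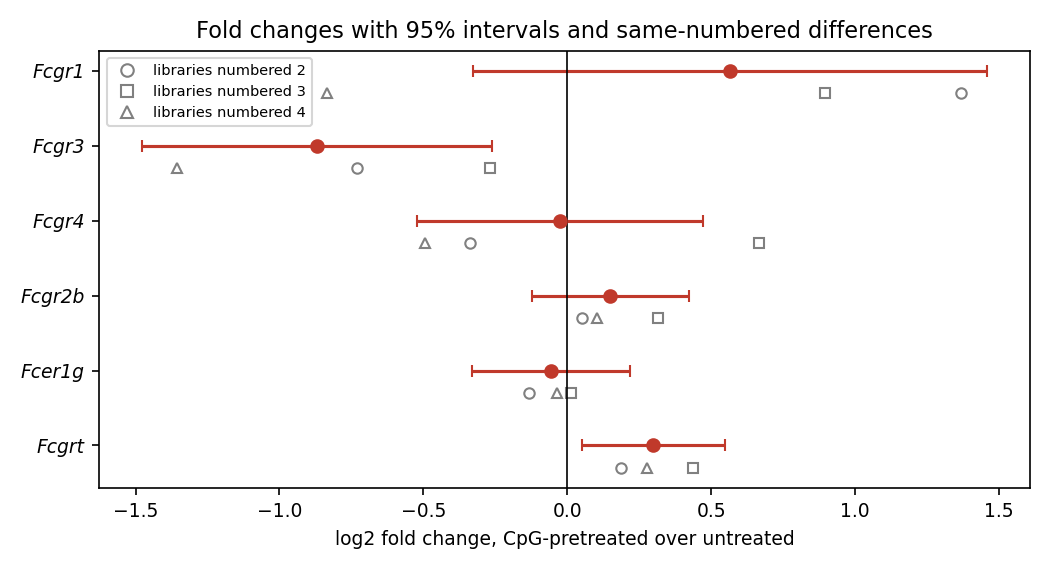
Log2 fold change of each Fc receptor gene, CpG-pretreated over untreated (x axis; red points with 95% intervals from edgeR without the block), with grey symbols for the differences between same-numbered libraries. Fcgr3 (-0.87) and Fcgrt (0.30) have all 3 pairs on one side of 0, as has Fcgr2b, while the pairs of Fcgr1, Fcgr4 and Fcer1g fall on both sides.

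Ratios within a library do not depend on how libraries are scaled to each other. The activating genes Fcgr1, Fcgr3 and Fcgr4 together stood at 0.763, 1.07 and 0.585 times Fcgr2b per kilobase in libraries 2, 3 and 4 of the CpG-pretreated group, against 0.967, 0.921 and 1.04 times in libraries 2, 3 and 4 of the untreated group. CpG-pretreated libraries 4 and 2 were the lowest and library 3 the highest, so the groups overlapped, with means of 0.807 ± 0.248 after CpG and 0.977 ± 0.0622 without it. Fcgr4 supplied most of the activating level, 76.3% ± 3.24 after CpG and 71.1% ± 5.39 in untreated cells. The share of Fcgr3 was 12% to 17.9% after CpG, below the 20.8% to 28.6% of untreated cells, and that of Fcgr1 was 5.62% to 12% against 3.56% to 6.44%. The ratio of Fcgr3 to Fcgr2b alone was 0.116 ± 0.0121 after CpG and 0.231 ± 0.0582 without it, and the groups did not overlap. These ratios combine members already described and were not tested.

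**Figure D3:**
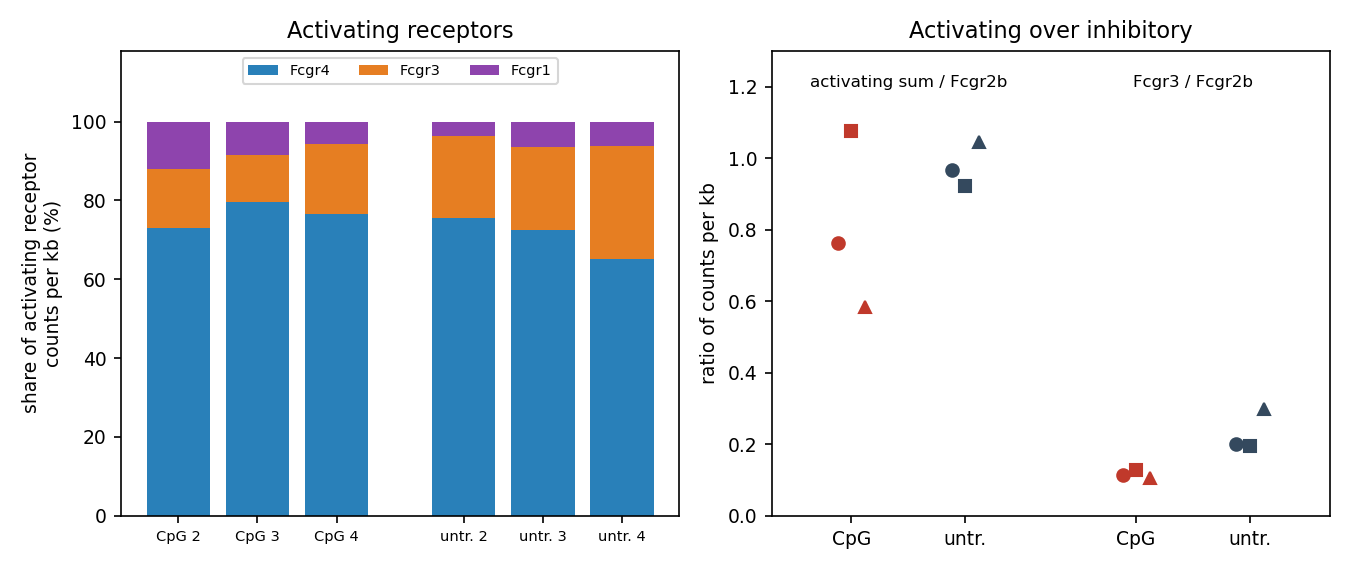
Left, share of Fcgr4, Fcgr3 and Fcgr1 in their summed counts per kilobase in each library (y axis, percent); right, ratio of the activating sum, and of Fcgr3 alone, to Fcgr2b per kilobase (y axis), with 1 point per library. The activating sum ranges from 0.585 to 1.07 after CpG and overlaps the untreated values, while Fcgr3 to Fcgr2b is lower in all 3 CpG-pretreated libraries.

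Fcer1g, the gamma chain on which the activating receptors depend, had 357, 313 and 309 CPM in libraries 2, 3 and 4 of the CpG-pretreated group, against 391.5, 310 and 317 CPM in libraries 2, 3 and 4 of the untreated group. Library 2 was the highest in both groups, and the groups overlapped. The log2 fold change was -0.06 (SE 0.12, 95% interval -0.33 to 0.22, edgeR adjusted p = 0.934), so that the fold lay between 0.795 and 1.16. Per kilobase Fcer1g stood at 22.1 ± 5.66 times the summed activating receptors after CpG and 20.2 ± 3.73 times in untreated cells. The libraries numbered 2 differed from the others by gene length. Spearman correlations of a library's deviation from its group with gene length were -0.55 in CpG-pretreated library 2 and -0.67 in untreated library 2, against 0.23 to 0.53 in the other 4. Fcer1g is short, at 658 bases, and lay 0.13 and 0.21 log2 units above its group mean in CpG-pretreated and untreated library 2. The median of 418 genes within 1.25-fold of its length lay 0.20 and 0.31 above in the same libraries. Without both libraries numbered 2 the log2 fold change of Fcer1g was -0.01 (edgeR adjusted p = 0.982), and without untreated library 2 alone it turned to 0.07 (0.802).

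**Figure D4:**
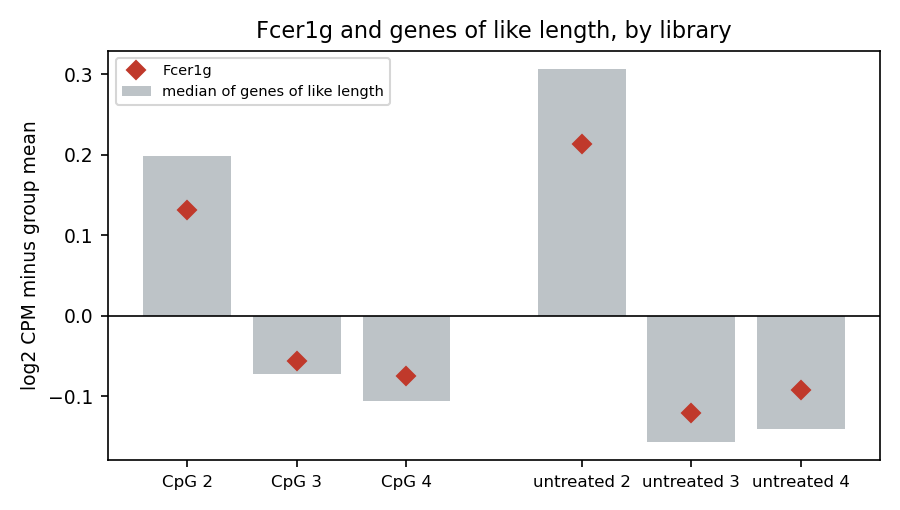
Deviation of log2 CPM from the group mean (y axis) in each library (x axis) for Fcer1g (red diamonds) and as the median of 418 genes of like length (grey bars). Both are above 0 in the libraries numbered 2, at 0.13 against 0.20 and 0.21 against 0.31, and below 0 in the other 4.

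Fcgrt, the heavy chain of the neonatal Fc receptor, had 85.6, 85.6 and 77.1 CPM in libraries 2, 3 and 4 of the CpG-pretreated group, against 75.2, 63.1 and 63.5 CPM in libraries 2, 3 and 4 of the untreated group. The lowest CpG-pretreated library lay just above the highest untreated one. The log2 fold change was 0.30 (SE 0.11, 95% interval 0.05 to 0.55, unadjusted p = 0.0240, edgeR adjusted p = 0.282), a level of 1.23 times the untreated one. With the block Fcgrt rose by 0.30 (SE 0.08, adjusted p = 0.0383), higher in 3 of 3 pairs at 0.19, 0.44 and 0.28. The antisense gene Gm45669 overlaps Fcgrt, and its reads cannot be told apart here. B2m, which encodes the partner chain of both this receptor and class I molecules, had 4410, 3930 and 3750 CPM after CpG and 3740, 3160 and 3110 CPM without it. Its log2 fold change was 0.27 (SE 0.11, edgeR adjusted p = 0.344; with the block 0.0222), and the groups did not overlap. Of the 7 tested genes of the list of FcRn partner and recycling genes, B2m was the only one called with the block and none was called without it. The recycling genes Vps35 and Ehd1 had log2 fold changes of 0.00 and -0.14 (edgeR adjusted p = 1 and 0.732).

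Receptors and adaptors around the gamma chain were measured in smaller number. Tyrobp, encoding the related ITAM adaptor DAP12, had 529, 457 and 487 CPM after CpG and 734, 490 and 498 CPM without it, where untreated library 2 stood alone (log2 fold change -0.23, edgeR adjusted p = 0.677), and the adaptor gene Hcst gave -0.29 (adjusted p = 0.628). Of 9 receptors known to signal with the gamma chain 4 were tested, and 0 were called by edgeR and 2 with the block, both lower. Clec4n, encoding the fungal receptor Dectin-2, had 12.1, 10.9 and 8.31 CPM after CpG and 19.3, 14.9 and 20.4 CPM without it (-0.80 on the log2 scale, SE 0.19, edgeR adjusted p = 0.0947; with the block 0.00889). Cd300ld, a CD300 family receptor gene, had 65.3 ± 4.84 CPM after CpG and 85.9 ± 13.6 CPM without it (-0.40, SE 0.13, edgeR adjusted p = 0.239; with the block 0.0114). Pira2 gave 0.12 (edgeR adjusted p = 0.933). The list median was -0.25, beside -0.005 for all genes tested.

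Of 12 other receptors for immunoglobulins 5 were tested. Trim21, a cytosolic antibody receptor, had 79.0 ± 5.82 CPM after CpG and 68.8 ± 3.08 CPM without it, and the groups did not overlap (log2 fold change 0.20, edgeR adjusted p = 0.465; with the block 0.153). Fcrl1, known from B cells, had 62.6, 51.7 and 87.8 CPM after CpG and 105, 99.0 and 98.3 CPM without it (-0.58, SE 0.18, edgeR adjusted p = 0.187; with the block 0.0418). The 6 B cell markers together gave 44.7 to 61.9 CPM after CpG and 53.1 to 68.7 CPM without it. Fcrl1 exceeded that sum in 6 of 6 libraries, and the part of B cells in the Fcrl1 values was not tested. Fcrl5 was at 4.66 ± 1.40 CPM after CpG and 2.06 ± 0.328 CPM without it (1.17, SE 0.30, edgeR adjusted p = 0.114; with the block 0.0276). The IgE receptor gene Fcer1a had 0 counts in all libraries.

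In the ITAM signalling list 0 of 25 genes were called by edgeR, the median was 0.02, and 24 of 25 were not called with the block either. The kinase gene Syk had 542 ± 107 CPM after CpG and 608 ± 75.1 CPM without it (-0.16, SE 0.16, edgeR adjusted p = 0.787), and the Src family kinase genes Lyn (-0.03) and Fgr (0.02) had adjusted p of 0.946 and 0.967. Pik3cd, encoding a phosphoinositide 3-kinase subunit, gave -0.12 (edgeR adjusted p = 0.786). The gene called with the block, Plcg2, encoding a phospholipase C, was named after its values were seen (604 ± 41.5 CPM after CpG, 482 ± 68.2 CPM without it, 0.33, edgeR adjusted p = 0.304; with the block 0.0164). In the inhibitory signalling list 0 of 8 tested genes were called with or without the block. Inpp5d, whose product SHIP is recruited by the Fcgr2b protein, had 649 ± 71.8 CPM after CpG and 635 ± 93.2 CPM without it (0.03, SE 0.14, edgeR adjusted p = 0.968). Ptpn6, encoding the phosphatase SHP-1, gave 0.09 (adjusted p = 0.804) and Csk -0.16 (adjusted p = 0.608). Among 4 tested complement receptors, Itgam (0.28), Itgax (-0.16) and Itgb2 (0.03) were not called, and Cr2, chosen after its values were seen and also a B cell marker, was called lower with the block only (-1.40, edgeR adjusted p = 0.0764; with the block 0.00243).

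**Figure D5:**
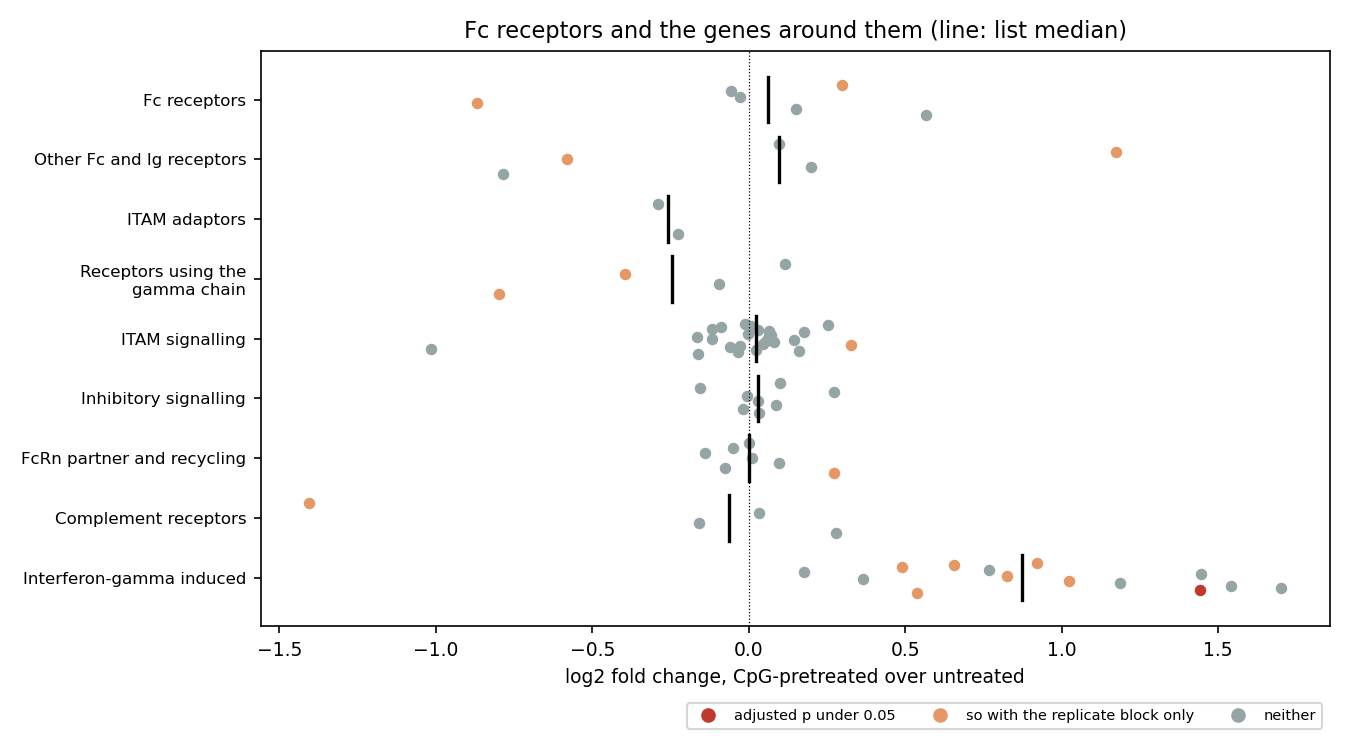
Log2 fold change, CpG-pretreated over untreated (x axis), of each tested gene of the Fc receptor set and of the lists around it (rows), with a line at the list median and colour for the edgeR call. The ITAM and inhibitory signalling genes centre on 0.02 and 0.03, while all 14 interferon-gamma induced genes lie above 0 around 0.87.

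Fcgr1 belongs by textbook knowledge with the interferon-gamma induced genes, which were listed apart. All 14 genes were tested and had log2 fold changes above 0, with a median of 0.87. By edgeR 1 of 14 rose, and with the block 6 rose. Tap1, a peptide transporter gene, had 772, 893 and 566 CPM in libraries 2, 3 and 4 of the CpG-pretreated group, against 496, 487 and 435 CPM in libraries 2, 3 and 4 of the untreated group (0.65, SE 0.16, edgeR adjusted p = 0.103; with the block 0.000766). CpG-pretreated library 4 was the lowest of its group for Tap1, as it was for Fcgr1. Untreated library 4 was the lowest of its group for Tap1 but the highest for Fcgr1. The Tap1 groups did not overlap. Ciita, the class II transactivator gene, gave 0.18 (edgeR adjusted p = 0.821).

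The genes whose log2 CPM followed each member most closely over the 6 libraries, out of 8957 candidates, were Jak3, Insig1 and Tars for Fcgr1 (Pearson r of 0.996, 0.994 and 0.981) and Csf3r, the G-CSF receptor gene, Ovca2 and Erlin1 for Fcgr3 (0.990, 0.986 and 0.984). For Fcgr4 they were Csf2ra, a GM-CSF receptor gene, Tango2 and Pcgf6 (0.980, 0.977 and 0.966), and for Fcgr2b Arfgap2, Fam76a and Ptpn6 (0.990, 0.957 and 0.946). Fcer1g was followed by Mrps18c, Vti1b and Pdcd6 (0.999, 0.995 and 0.994) and Fcgrt by Pstpip1, Ms4a4c and Max (0.993, 0.992 and 0.988). These values rest on 6 libraries that share depth, group and the length trend, and are given as a description. Among the members themselves the closest relation was -0.71 between Fcgr3 and Fcgrt, and the other 14 pairs lay between -0.20 and 0.52.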

How the data were processed

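The deposited table gives raw counts for each Entrez gene, made by the authors with CASAVA and featureCounts on mm10, per the submitters' processing notes, without versions. Strand setting, read length and multi-mapping are not stated there. Symbols came from RefSeq GRCm38.p6, the assembly mm10 names (25275 of 27179 IDs matched). Gene lengths in bases are the authors' deposited Length column.

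Testing used edgeR 4.0.16 under R 4.3.3: filterByExpr (minimum count 10, minimum total 15; 11602 genes), TMM, robust quasi-likelihood F test, two-sided, Benjamini-Hochberg over all genes, called under an adjusted p of 0.05. CPM use TMM library sizes. Log2 CPM for pairs and likeness used a prior count of 2. The procedure was tested on simulated data. Replicates differed beyond sampling noise (chi-square per degree of freedom 3.17 to 19.7), so all 6 libraries were used. Same-numbered libraries deviated together (correlations of 0.479, 0.250 and 0.311, each over 0.1), against -0.394 to 0.066 between libraries of different number. The numbers were therefore taken to pair samples, from the data alone, as labels do not say what they mark. Whether the length trend of the libraries accounts for these correlations was not tested. The blocked fit is given where it changes a call. Alternatives were DESeq2 1.42.0, limma-voom (limma 3.58.1), other scalings and filters, and leaving out libraries.

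The members and lists were chosen with earlier results of these data known. Named genes are the 6 members, the 3 genes closest in pattern to each (average log2 CPM of at least 3), and from each list the called genes, the 3 most abundant, and Syk, Lyn, Inpp5d, Ptpn6, B2m, Tyrobp and Trim21. Some named genes are not reported here. Of 181 list entries 180 matched. Motifs were searched in RefSeq promoters; shared words used GENCODE M21 transcripts.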

Additional observations from a re-analysis of the deposited data

How the results depend on the processing

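The directions of Fcgr1, Fcgr2b, Fcgr3 and Fcgrt held under every alternative run with both genes counted apart. Calls of members changed only with the replicate block, where Fcgr3 (-0.84, adjusted p = 0.0369) and Fcgrt (0.30, adjusted p = 0.0383) passed the threshold, and the cause was not tested. Leaving out 1 library gave 0.36 to 0.89 for Fcgr1, 0.05 to 0.22 for Fcgr2b, -1.06 to -0.56 for Fcgr3, -0.29 to 0.13 for Fcgr4, -0.124 to 0.072 for Fcer1g and 0.25 to 0.40 for Fcgrt, none of them called. Fcgr4 turned to 0.13 without both libraries numbered 2, a setting chosen after seeing the data, and Fcgr1 was then 0.15. The sum of Fcgr3 and Fcgr2b, also chosen after seeing the data, gave 0.02. Fcgr3 made up 8.39% to 20.7% of that sum in single libraries, so its value mostly follows Fcgr2b. The number of genes called was 113, and 428 by DESeq2, 189 without a filter, 41 by limma-voom, 988 with the block, 67 without both libraries numbered 2 and 0 to 386 when 1 library was left out. Of the 69 tested genes of the 8 lists of receptors, signalling and interferon-gamma induced genes, 1 was called, and 11 by DESeq2, 2 without a filter, 0 by limma-voom, 13 with the block, 0 without both libraries numbered 2 and 0 to 12 when 1 library was left out. Values near 0 turned in Vps35 (0.008 by DESeq2 and with its size factors, 0.002 without a filter, 0.005 with the filter at 1 CPM), Fgr (-0.009 with upper quartile scaling, -0.003 without both libraries numbered 2) and Itgb2 (-0.002 with upper quartile scaling). With 1 library left out, Vps35 ranged from -0.059 to 0.059, Pira2 from -0.006 to 0.383, Inpp5d from -0.072 to 0.122, Itgb2 from -0.012 to 0.087 and Tyrobp from -0.331 to 0.003. By counts instead of counts per kilobase, the activating sum was 0.722 times Fcgr2b after CpG and 0.851 times in untreated cells. Fcgr1 and Fcgr3 rested on 20 to 95 counts per library.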
